A study of Mus musculus with 12 samples.

Results

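The genes described here are the Hippo pathway effectors YAP and TAZ, their TEAD partners and a set of their target genes, taken by gene name from the expression table of the series. The 10 names are Yap1, Wwtr1 (which encodes TAZ), Tead1, Tead4, Lats2, Amotl2, Ajuba, Ankrd1, Ctgf and Cyr61. They belong to 11 of the 52550 gene identifiers in the files, because Lats2 names a pair of overlapping identifiers on the same strand. The second Lats2 identifier had at most 0.76 TPM (a transcript level scaled for gene length and library size) in any library and was not tested. The other 10 identifiers passed the filter on low counts and are among the 16823 genes tested.

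D2A1 and D2.OR are mouse mammary carcinoma cell lines that arose as separate tumors in different mice, and are used as a proliferative and a dormant model of metastasis. RNA of each line was sequenced from 2D culture on plastic and from 3D culture on top of growth-factor-reduced Matrigel, a soft basement membrane gel. The 4 groups, D2A1 2D, D2A1 3D, D2.OR 2D and D2.OR 3D, held 3 libraries each, all unmodified cells without drug treatment as far as the labels say. The replicate number also marks the batch, each batch had its own sequencing lane, and each library was a pool of several culture wells. A difference between D2.OR and D2A1 is a difference between 1 line and 1 other line. The 3D cells grew in low-serum medium with hydrocortisone, cholera toxin and insulin and were recovered from the gel in ice-cold solution, and the methods do not settle whether the 2D cells for RNA had the same medium. Gel, recovery and possibly medium cannot be told apart in a difference between 3D and 2D.

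YAP and TAZ are transcriptional coactivators that bind no DNA themselves and act through the TEAD family of transcription factors. In the Hippo pathway, MST kinases activate LATS kinases, which phosphorylate YAP and TAZ and keep them in the cytoplasm. Stiff substrates, spreading and low cell density are known to bring YAP and TAZ into the nucleus. This regulation acts mainly on the proteins, so activity is commonly read from target genes such as Ctgf, Cyr61 and Ankrd1 rather than from Yap1 or Wwtr1 mRNA. Lats2 and Amotl2 are both targets and inhibitors of YAP and TAZ, and thus close a negative feedback loop.

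The core of the TEAD binding site, GGAATG on one strand or CATTCC on the other, was searched in the RefSeq promoter windows of the 10 genes (250 bases before to 50 after each start, build GRCm38.p6). All 10 genes matched a RefSeq gene, and 7 had a window. Tead1, Tead4 and Ctgf had none. The motif was in the windows of 7 of these 7 genes and in 8 of their 9 windows. Over all genes with a window, 16.6% held it (4481 of 27025), and over all windows 14.7% (4817 of 32851). The first letter of the match lay 141 bases before the start of Yap1 (position -141), at -136 of Wwtr1, -65 of Amotl2, -186 and -164 of Ajuba, -210 and -123 of Ankrd1, -103 of Cyr61 and at position 4 of Lats2, with the first transcribed base as position 0. A match is a description of the letters, and binding was not measured. The stretches around the matches before the start are shown from 5′ to 3′ on the strand of the gene, with the motif in capitals, since these are the letters through which TEAD proteins could contact the genes whose levels follow. For Cyr61, the most abundant of the 10 genes by median, all 250 bases before the start are shown.
Yap1, chr9:8004720-8004749, minus strand: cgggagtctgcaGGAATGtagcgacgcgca
Wwtr1, chr3:57576029-57576058, minus strand: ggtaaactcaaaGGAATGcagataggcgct
Amotl2, chr9:102717727-102717756, plus strand: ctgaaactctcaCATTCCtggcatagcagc
Ajuba, chr14:54577830-54577859, minus strand: cgttgatggataCATTCCacagtgcccctc
Ajuba, chr14:54577808-54577837, minus strand: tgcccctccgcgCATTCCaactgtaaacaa
Ankrd1, chr19:36120037-36120066, minus strand: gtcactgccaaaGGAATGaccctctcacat
Ankrd1, chr19:36119950-36119979, minus strand: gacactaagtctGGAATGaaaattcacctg
Cyr61, chr3:145649986-145650235, minus strand: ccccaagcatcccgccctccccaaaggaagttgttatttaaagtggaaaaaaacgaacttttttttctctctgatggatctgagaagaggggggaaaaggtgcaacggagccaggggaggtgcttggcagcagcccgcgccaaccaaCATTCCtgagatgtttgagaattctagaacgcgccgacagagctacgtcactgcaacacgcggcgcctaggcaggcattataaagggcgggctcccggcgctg

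Library totals ranged from 47589611 to 73325069 expected counts, so counting error is small beside the spread between libraries for all 10 genes. D2.OR carried more of the luminal epithelial markers than D2A1, with the summed TPM of Epcam, Krt8, Krt18, Krt19 and Cdh1 at 416 to 1714 in the D2.OR libraries and 94.0 to 297 in the D2A1 libraries. In D2A1, 4 of these 5 were at 2.31 TPM or below in every library and Krt18 made up nearly all of the sum, so the defining markers Epcam and Cdh1 were near 0 in a line labelled as breast cancer. The mesenchymal sum (Vim, Fn1, Cdh2, Zeb1 and Zeb2) was high throughout, at 1628 to 3501 TPM in D2A1 and 3546 to 6303 TPM in D2.OR. The fibroblast sum (Col1a1, Col1a2, Pdgfra and Dcn) was 16.6 to 41.4 TPM in D2A1 and 89.4 to 213 TPM in D2.OR. Basal epithelial markers summed to at most 11.1 TPM, endothelial markers to at most 0.42 TPM and immune markers to at most 32.1 TPM. Zeb1 ran against the mesenchymal sum, at 16.2 to 24.1 TPM in D2A1 2D and 2.88 to 10.9 TPM in D2.OR 2D. Fn1 overlapped between the lines, at 612 to 2711 TPM in D2A1 2D and 664 to 1621 TPM in D2.OR 2D. Dcn had a median of 2.09 TPM in D2A1 3D and 0.59 TPM in D2.OR 3D, against 0.91 and 4.11 TPM in 2D. Krt19 and Cdh2 were at most 0.14 TPM in any library. The luminal sum also moved with culture, at 1164 to 1714 TPM in D2.OR 2D against 416 to 875 TPM in D2.OR 3D, and at 205 to 297 TPM in D2A1 2D against 94.0 to 221 TPM in D2A1 3D. The marker sums of luminal, mesenchymal and fibroblast genes separated the lines, the mesenchymal sum narrowly (3501 against 3546 TPM), but not each gene in them did. The genes described next separated the lines in part. The role of these marker differences in the line and culture results was not tested.

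Of the targets, Ctgf, Cyr61, Ankrd1, Lats2 and Amotl2 were higher in D2.OR in both cultures, and Ajuba did not pass in either. In 2D, 6 of the 10 genes were higher in D2.OR (Tead1, Lats2, Amotl2, Ankrd1, Ctgf and Cyr61) and none was lower at an adjusted p under 0.05 (edgeR quasi-likelihood test, adjusted over all genes tested). The lines differ widely, so the background is high: 49.8% of all tested genes passed, 25.4% higher and 24.4% lower, and the share of 6 in 10 lies near it. In 3D, 7 of the 10 were higher in D2.OR, Wwtr1 being the addition, against 53.8% of all tested genes, 27.7% higher and 26.1% lower. The median log2-fold change of the 10 genes was 0.55 in 2D and 1.01 in 3D, and that of all tested genes was near 0 in both (-0.0034 and 0.0005). The 10 genes and the lists below were chosen with earlier results of these data known, so medians over them are descriptions. In 2D, Yap1, Wwtr1, Tead4 and Ajuba lay between -0.07 and 0.16. Without the batch block, 2 of the 10 genes passed in 2D (Lats2 and Ankrd1), when 7391 of all genes did, and 7 in 3D, when 8037 did. The same number, 2, passed in 2D without batch 2 or without batch 3, when all called genes also fell to 4227 and 5400, and 3 passed without D2A1 2D replicate 2. In 3D, 4 passed without batch 2, when 5273 of all genes did. Without batch 1, 7 passed in 2D, when 9062 of all genes did, and 6 in 3D, when 9581 did.

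**Figure D1:**
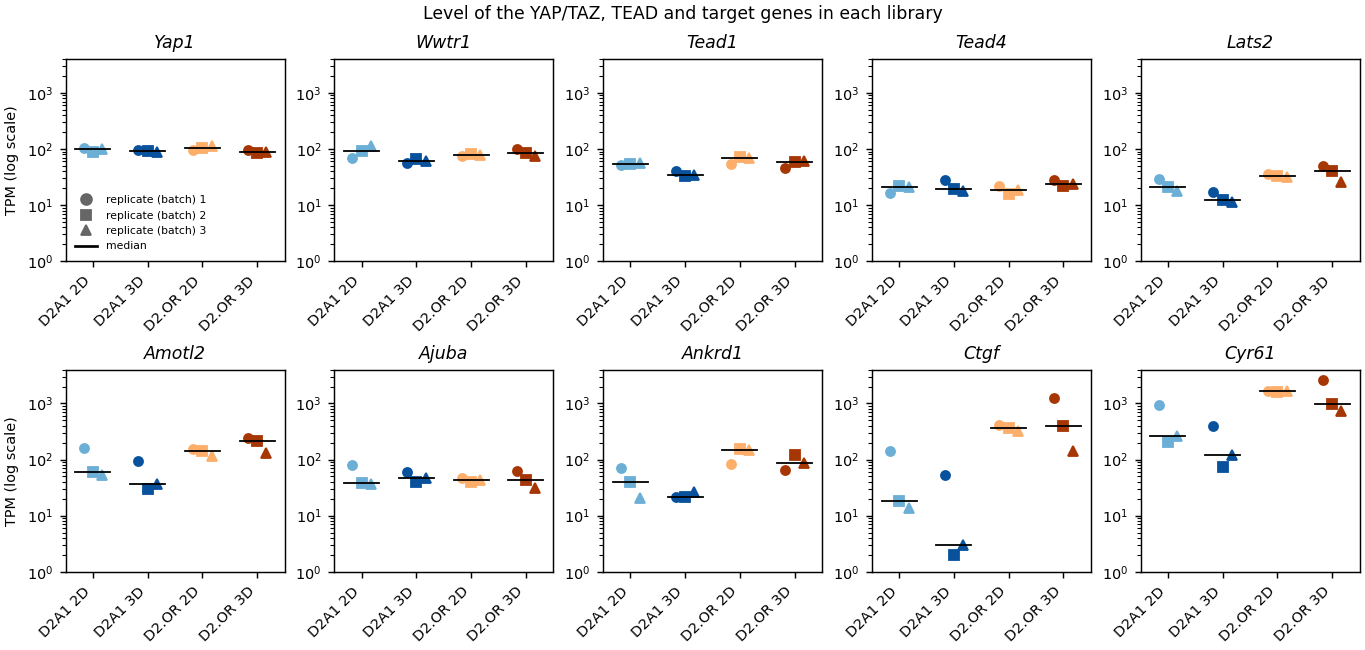
Level of each of the 10 genes in TPM (log scale) in the 12 libraries, by group, with a symbol for each replicate (batch) and a line at the group median. Yap1 stayed between 85.4 and 112.6 TPM, while Ctgf ran from 1.97 to 1266 TPM with batch 1 highest in every group.

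Between 3D and 2D, few of the 10 genes passed the test. In D2A1, Lats2 was lower in 3D and the other 9 did not pass (edgeR), with 3.48% of all tested genes called, 1.37% higher and 2.12% lower. At an unadjusted p under 0.05 there were 6 of the 10 (Wwtr1, Tead1, Lats2, Amotl2, Ctgf and Cyr61), all with a lower fitted level in 3D, among 5282 of all genes. In D2.OR, 0 of the 10 passed in edgeR, with 1.62% of all genes called (0.838% higher and 0.785% lower). The count there at an unadjusted p was 1 (Yap1) among 2967 of all genes. DESeq2 also called 0 of the 10, when it called 1174 of all genes. The interaction asks whether the change from 2D to 3D differs between the lines. For it, 1 of the 10 passed in DESeq2 (Lats2), when 944 of all genes did, and 0 of the 10 passed in edgeR. The edgeR background was 0.0238% (0.0178% higher and 0.00594% lower). In edgeR, 2 of the 10 had an unadjusted p under 0.05 (Lats2 and Amotl2) among 2997 of all genes. The median log2-fold change of the 10 genes was -0.55 in D2A1 and -0.10 in D2.OR, with all-gene medians of 0.0037 and 0.0020.

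These culture counts rested on the batches. Without batch 1, 5 of the 10 genes passed in D2A1 (Wwtr1, Tead1, Lats2, Ctgf and Cyr61, all lower in 3D), when 6120 of all tested genes did. Without batch 2 or without batch 3, 0 of the 10 and 0 of all genes passed in edgeR. In D2.OR, 1 of the 10 passed without batch 1 (Cyr61, lower in 3D), among 1412 of all genes. The library of batch 1 was the highest in Ctgf and Cyr61 in every group, and the part of any difference between batches in these calls was not tested.

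**Figure D2:**
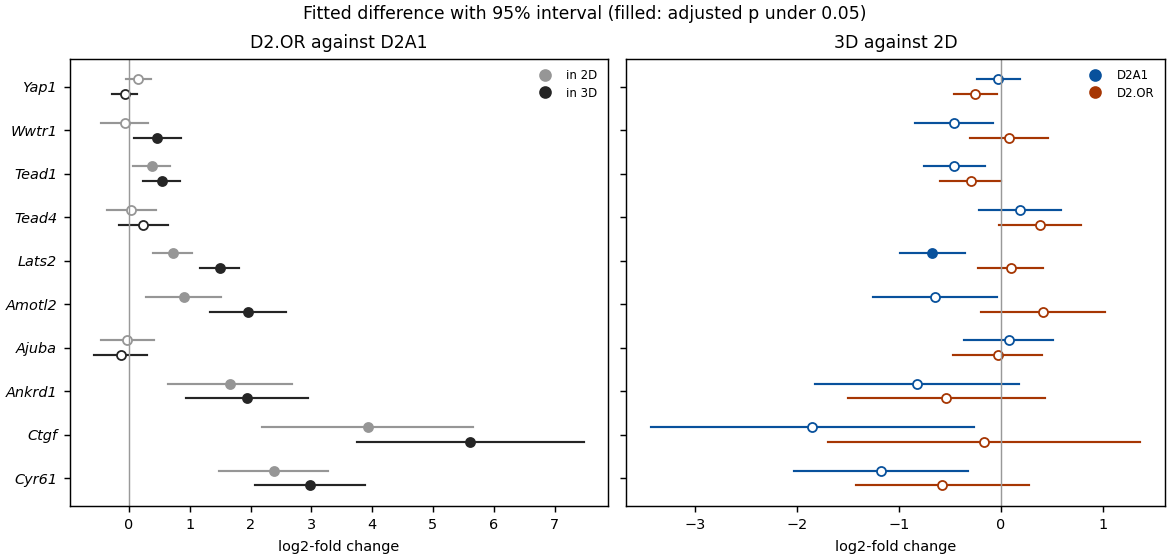
Fitted log2-fold change of each gene with its 95% interval from edgeR, for D2.OR against D2A1 in 2D and 3D (left) and for 3D against 2D in each line (right), where filled points have an adjusted p under 0.05. In the left panel Ctgf and Cyr61 lie farthest to the right, at 3.92 and 2.38 in 2D and 5.61 and 2.98 in 3D, and in the right panel the D2A1 value of Lats2 (-0.67) is the filled point.

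Of the coactivator genes, Yap1 varied little and Wwtr1 more. Yap1 (ENSMUSG00000053110.13, chr9:7931999-8004596, minus strand, GRCm38, as are the other gene positions) was at 105.1, 89.5 and 101.0 TPM in D2A1 2D (batches 1 to 3), 96.2, 91.2 and 87.2 in D2A1 3D, 94.3, 106.1 and 112.6 in D2.OR 2D, and 97.2, 85.4 and 88.3 in D2.OR 3D. All 4 groups overlapped in the comparisons made, and the highest library was 1.32 times the lowest, the narrowest range of the 10 genes. The log2-fold change of D2.OR against D2A1 was 0.16 in 2D (95% interval -0.06 to 0.37, edgeR adjusted p = 0.197) and -0.07 in 3D (-0.28 to 0.14, edgeR adjusted p = 0.532). From 2D to 3D it was -0.03 in D2A1 (-0.24 to 0.19) and -0.25 in D2.OR (-0.47 to -0.04, edgeR adjusted p = 0.205). Without batch 1 the 2D difference between the lines passed, at 0.26 (edgeR adjusted p = 0.0428).

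Wwtr1 (ENSMUSG00000027803.14, chr3:57455649-57575910, minus strand), the gene of TAZ, was at 67.6, 92.1 and 114.4 TPM in D2A1 2D and 57.3, 65.6 and 61.0 TPM in D2A1 3D. In D2.OR it was at 76.0, 82.6 and 77.7 TPM in 2D and 100.8, 83.4 and 74.1 TPM in 3D. Every D2A1 3D library was below every library of the other 3 groups. The lines overlapped in 2D (log2-fold change -0.07, edgeR adjusted p = 0.753), and in 3D Wwtr1 was higher in D2.OR by 0.47 (SE 0.17, edgeR adjusted p = 0.0433). The 3D call failed in 14 of 23 alternatives, with an adjusted p of up to 0.198 and a difference of 0.27 without D2.OR 3D replicate 1, and a difference of 0.29 without batch 1 (edgeR adjusted p = 0.0923). In D2A1 the groups of 3D and 2D did not overlap, and the fitted difference of -0.46 did not pass (edgeR adjusted p = 0.108). Without batch 1 it was -0.56 and passed (edgeR adjusted p = 0.0135), as it did without D2A1 2D replicate 1, at -0.64 (edgeR adjusted p = 0.0150).

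Of the TEAD genes, Tead1 differed between the lines and Tead4 did not pass in any comparison. Tead1 (ENSMUSG00000055320.17, chr7:112679318-112906807, plus strand) was at 51.2, 53.5 and 56.1 TPM in D2A1 2D, 40.7, 32.6 and 34.4 in D2A1 3D, 54.5, 70.9 and 70.4 in D2.OR 2D, and 45.9, 59.2 and 60.3 in D2.OR 3D. The D2A1 3D libraries were the lowest, and those of batch 1 were the lowest of D2.OR. Tead1 was higher in D2.OR by 0.37 on the log2 scale in 2D (SE 0.13, edgeR adjusted p = 0.0426) and by 0.54 in 3D (SE 0.13, edgeR adjusted p = 0.00815). Without the block the 2D value was 0.38 and did not pass (edgeR adjusted p = 0.0563), and the 2D call failed in 16 of 23 alternatives, with an adjusted p of up to 0.265 without batch 2, and the 3D call failed without batch 2 (0.43, edgeR adjusted p = 0.137) or batch 3 (0.44, edgeR adjusted p = 0.117). From 2D to 3D the log2-fold change was -0.46 in D2A1 (edgeR adjusted p = 0.0670), and this passed without batch 1, at -0.56 (edgeR adjusted p = 0.00181), and without D2A1 3D replicate 1, at -0.64 (edgeR adjusted p = 0.0131). With all 12 libraries it passed in DESeq2, at -0.48 (DESeq2 adjusted p = 0.00926), and in limma on log2(TPM + 0.1), at -0.58 (limma adjusted p = 0.0442). In D2.OR the change was -0.30 (edgeR adjusted p = 0.287), with -0.30, -0.30 and -0.29 within the 3 batches.

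Tead4 (ENSMUSG00000030353.15, chr6:128224288-128300823, minus strand) was the least abundant by median, with 16.4, 21.7 and 21.2 TPM in D2A1 2D, 27.7, 19.2 and 17.6 in D2A1 3D, 21.9, 15.5 and 18.4 in D2.OR 2D, and 28.2, 22.2 and 23.9 in D2.OR 3D. In D2.OR each 3D library was above each 2D library, and the fitted rise of 0.38 did not pass (95% interval -0.02 to 0.79, edgeR adjusted p = 0.299). The line difference was 0.04 in 2D and 0.23 in 3D, with overlapping groups. Of the paralogs, Tead2 was lower in D2.OR in 3D by -0.73 (SE 0.10, edgeR adjusted p = 0.000280) and Tead3 higher by 0.99 (SE 0.18, edgeR adjusted p = 0.00164). In 2D, Tead3 was higher in D2.OR by 0.68 (SE 0.18, edgeR adjusted p = 0.0126) and Tead2 was at -0.17. The interaction did not pass for Tead2 (-0.56, edgeR adjusted p = 0.126) or Tead3 (0.32, edgeR adjusted p = 0.527). Tead2 was also lower in 3D than in 2D in D2.OR, at 82.0 ± 11.6 against 116.9 ± 12.4 TPM (SD, n = 3, log2-fold change -0.53, edgeR adjusted p = 0.0377).

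The feedback inhibitors Lats2 and Amotl2 were higher in D2.OR in both cultures. Lats2 (ENSMUSG00000021959.16, chr14:57689662-57758388, minus strand), a kinase that phosphorylates YAP and TAZ, was at 29.5, 21.3 and 18.0 TPM in D2A1 2D, 17.4, 12.3 and 11.3 in D2A1 3D, 35.3, 33.5 and 32.3 in D2.OR 2D, and 50.7, 40.4 and 25.5 in D2.OR 3D. The lines did not overlap in either culture, and the 2D and 3D libraries of D2A1 did not overlap either. Lats2 was higher in D2.OR by 0.72 in 2D (SE 0.14, edgeR adjusted p = 0.00279) and by 1.49 in 3D (SE 0.14, edgeR adjusted p = 4.6e-05), a fold of 2.81 in 3D. The 2D difference was 0.67 without batch 2 and did not pass (edgeR adjusted p = 0.0588). Within batches 1 to 3 the 3D difference was 1.56, 1.70 and 1.17. A snoRNA, Gm26440, and a pseudogene, Gm20430, lie within Lats2 on the opposite strand, with at most 47.2 and 8.26 TPM, and whether the reads were counted by strand is not given in the sources used here.

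Lats2 was the gene called between 3D and 2D in D2A1, where it was lower in 3D by -0.67 on the log2 scale (SE 0.14, edgeR adjusted p = 0.0453). The change was -0.80, -0.65 and -0.56 within batches 1 to 3. The call is near the threshold, and the difference without the batch block was -0.69 (edgeR adjusted p = 0.116). It failed in 13 of 23 alternatives, among them without batch 2 (-0.68, edgeR adjusted p = 0.516), without batch 3 (-0.73, edgeR adjusted p = 0.533) and with each single library of batch 2 or 3, or D2.OR 3D replicate 1, left out (-0.63 to -0.74). In D2.OR the change was 0.09 (95% interval -0.23 to 0.41), with 0.40, 0.22 and -0.34 within the batches. The interaction was 0.77 (SE 0.20, edgeR adjusted p = 0.145 and DESeq2 adjusted p = 0.0171).

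Amotl2 (ENSMUSG00000032531.15, chr9:102716672-102733418, plus strand), an angiomotin scaffold that holds YAP at junctions and in the cytoplasm, was at 163.5, 59.9 and 53.3 TPM in D2A1 2D and 94.2, 29.7 and 36.8 TPM in D2A1 3D. In D2.OR it was at 155.7, 143.2 and 114.5 TPM in 2D and 245.1, 210.0 and 129.2 TPM in 3D. Batch 1 was the highest library in each of the 4 groups, and in D2A1 2D it was above every D2.OR 2D library. Amotl2 was higher in D2.OR by 0.90 in 2D (SE 0.27, edgeR adjusted p = 0.0221), with 0.11, 1.34 and 1.26 within the batches. Without the block this was 0.72 and did not pass (edgeR adjusted p = 0.241), nor did it without batch 2 (0.67), batch 3 (0.73), or any single 2D library of those batches (0.75 to 0.81). Nor did it pass in limma on log2(TPM + 1), at 0.75 (limma adjusted p = 0.0567), or on log2(TPM + 0.1), at 0.76 (limma adjusted p = 0.0510). In 3D the lines did not overlap, and the difference was 1.96 (SE 0.28, edgeR adjusted p = 0.000410), a fold of 3.88.

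Amotl2 was lower in 3D in each batch of D2A1, at -0.81, -0.84 and -0.28, and higher in 3D in each batch of D2.OR, at 0.51, 0.52 and 0.20 on the log2 scale. Neither change passed over all genes (fitted -0.65, edgeR adjusted p = 0.142, and 0.41, edgeR adjusted p = 0.460). The interaction was 1.06 (SE 0.38, edgeR adjusted p = 0.211). Ajuba (ENSMUSG00000022178.10, chr14:54567469-54577661, minus strand), a LIM protein that inhibits LATS kinases, was at 79.0, 38.9 and 36.6 TPM in D2A1 2D, 59.4, 39.6 and 46.0 in D2A1 3D, 47.2, 39.4 and 43.9 in D2.OR 2D, and 63.8, 43.4 and 31.0 in D2.OR 3D. Its groups overlapped in every comparison, and the line difference was -0.03 in 2D (95% interval -0.47 to 0.41) and -0.13 in 3D (-0.57 to 0.30).

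**Figure D3:**
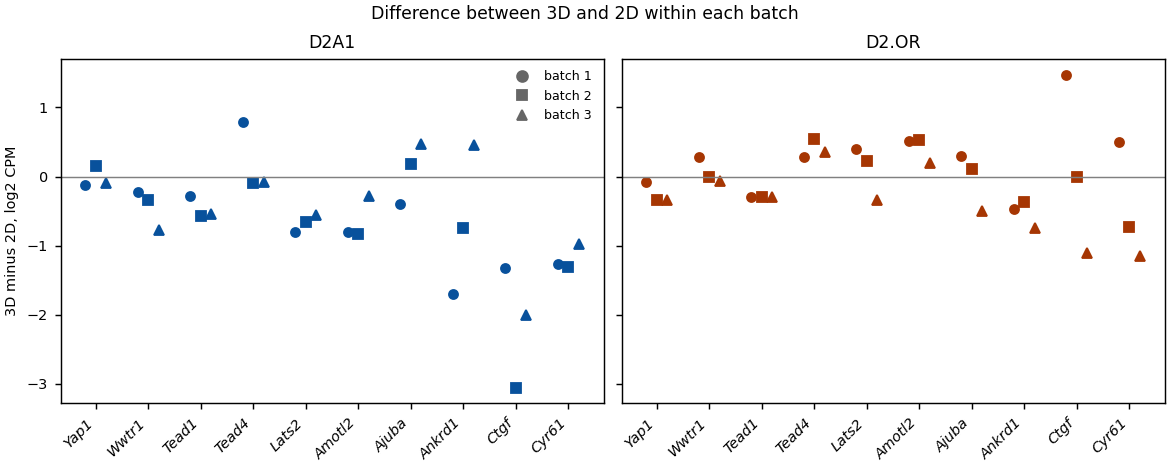
Difference of log2 CPM (normalized counts, prior count of 2) between 3D and 2D within each batch, for the 10 genes in D2A1 (left) and D2.OR (right). Wwtr1, Tead1, Lats2, Amotl2, Ctgf and Cyr61 are below 0 in all 3 batches of D2A1, and Ctgf in D2.OR runs from 1.47 in batch 1 to -1.11 in batch 3.

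Ctgf and Cyr61 had the widest ranges of the 10 genes. Ctgf (ENSMUSG00000019997.11, chr10:24595442-24598683, plus strand), a secreted matricellular protein, was at 140.2, 17.9 and 13.9 TPM in D2A1 2D, 53.8, 1.97 and 3.00 in D2A1 3D, 412.6, 369.5 and 322.0 in D2.OR 2D, and 1266, 388.6 and 143.4 in D2.OR 3D. Every D2.OR library was above every D2A1 library, and within D2A1 batch 1 stood far above the others. Ctgf was higher in D2.OR by 3.92 on the log2 scale in 2D (SE 0.77, edgeR adjusted p = 0.00262) and by 5.61 in 3D (SE 0.83, edgeR adjusted p = 0.000488), folds of 15.2 and 48.9. Within batches 1 to 3 the difference was 1.68, 4.52 and 4.56 in 2D and 4.48, 7.58 and 5.46 in 3D. The 2D difference was 2.81 without the batch block (edgeR adjusted p = 0.104) and 3.44 without batch 3 (edgeR adjusted p = 0.0540), and it was 4.55 without batch 1 and 4.58 without D2.OR 2D replicate 1. The 3D difference passed in all 23 alternatives but its size rested on single libraries, being 6.52 without batch 1, 6.59 without D2A1 3D replicate 1, 4.84 without batch 2, 5.01 without D2A1 3D replicate 2 and 4.89 without the block. The antisense transcript Gm15270 overlaps Ctgf, with at most 27.6 TPM, and reads of the pair may not be told apart without strand.

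Cyr61 (ENSMUSG00000028195.4, chr3:145646976-145649981, minus strand), a secreted relative of Ctgf, was the most abundant of the 10 genes by median. It was at 954.5, 207.2 and 258.0 TPM in D2A1 2D, 392.8, 75.1 and 119.4 in D2A1 3D, 1687, 1596 and 1643 in D2.OR 2D, and 2620, 978.0 and 743.4 in D2.OR 3D. The D2.OR 2D libraries lay close together, while batch 1 stood well above the others in the other 3 groups. Cyr61 was higher in D2.OR by 2.38 in 2D (SE 0.40, edgeR adjusted p = 0.00113) and by 2.98 in 3D (SE 0.40, edgeR adjusted p = 0.000307), folds of 5.20 and 7.89. Without the block the 2D difference was 1.92 (edgeR adjusted p = 0.0518).

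From 2D to 3D, Ctgf and Cyr61 were lower in all 3 batches of D2A1, and neither passed in edgeR. The fitted log2-fold change was -1.85 for Ctgf (SE 0.70, edgeR adjusted p = 0.114) and -1.18 for Cyr61 (SE 0.38, edgeR adjusted p = 0.0807). With DESeq2 on all 12 libraries Cyr61 passed, at -1.19 (DESeq2 adjusted p = 0.0133). Without batch 1 both passed in edgeR, at -2.45 for Ctgf (edgeR adjusted p = 0.00470) and -1.12 for Cyr61 (edgeR adjusted p = 0.00767). Ctgf also passed without D2A1 3D replicate 1, at -2.92 (edgeR adjusted p = 0.0403), and Cyr61 without D2.OR 2D replicate 1, at -1.17 (edgeR adjusted p = 0.0342). In D2.OR the batches went different ways, with 1.47, 0.00 and -1.11 for Ctgf and 0.50, -0.73 and -1.15 for Cyr61. The fitted values there were -0.17 for Ctgf (95% interval -1.69 to 1.36) and -0.58 for Cyr61 (-1.43 to 0.28), so changes of either sign lie within the interval. Cyr61 was -0.92 without batch 1 and then passed (edgeR adjusted p = 0.0481).

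Ankrd1 (ENSMUSG00000024803.8, chr19:36111965-36119844, minus strand), an ankyrin repeat protein of striated muscle that is widely read as a YAP target, was at 71.2, 39.6 and 21.1 TPM in D2A1 2D, 21.7, 21.1 and 26.1 in D2A1 3D, 81.8, 154.9 and 147.0 in D2.OR 2D, and 64.5, 122.0 and 87.9 in D2.OR 3D. The lines did not overlap in either culture, and here batch 1 was the lowest D2.OR library. Ankrd1 was higher in D2.OR by 1.65 in 2D (SE 0.45, edgeR adjusted p = 0.0141) and by 1.94 in 3D (SE 0.44, edgeR adjusted p = 0.00531), folds of 3.15 and 3.84. The 2D difference was 2.49 without batch 1 and 2.41 without D2A1 2D replicate 1, and did not pass without batch 2 (1.41, edgeR adjusted p = 0.151), batch 3 (1.14, edgeR adjusted p = 0.107) or D2A1 2D replicate 2 (1.45, edgeR adjusted p = 0.0706). The 3D difference was 1.65 without batch 2 and did not pass (edgeR adjusted p = 0.0874). From 2D to 3D the change was -0.83 in D2A1, with batches from -1.69 to 0.45. It was -0.54 in D2.OR, with -0.47, -0.37 and -0.75 within the batches, and neither passed in edgeR on all 12 libraries. With only the 6 D2.OR libraries fitted, the D2.OR change was -0.52 and passed (edgeR adjusted p = 0.049). The D2A1 value rested on 1 library, being -0.018 without D2A1 2D replicate 1 and -0.16 without batch 1.

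The other genes of the pathway, 44 in all of which 40 were tested (Ptpn14, in both the upstream and the target list, counted once), were counted in the same fit. Between the lines, 19 were higher and 6 lower in D2.OR in 2D, and 23 higher and 4 lower in 3D, beside the shares of all genes given above, and their median log2-fold change was 0.46 in 2D and 0.70 in 3D. Of the 6 genes of the core kinase cassette, 4 were called between the lines in 2D and 3 in 3D, shares near the 49.8% and 53.8% of all tested genes. Those higher in D2.OR in both cultures were the kinase Lats1 (0.96 in 2D and 0.98 in 3D), the MST adaptor Sav1 (0.98 and 0.83) and the LATS cofactor Mob1b (0.47 and 0.55). The MST kinase Stk3 was lower in D2.OR in 2D (-0.41) and also fell from 2D to 3D in D2A1 (-0.65, edgeR adjusted p = 0.0427).

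Of the 15 upstream regulators and scaffolds tested, 7 were higher and 1 lower in D2.OR in 2D, and 9 higher and 1 lower in 3D. These 8 and 10 of 15 stand beside 49.8% and 53.8% of all tested genes, so the 2D share is close to the background. The angiomotin Amotl1 was higher by 1.72 in 2D and 1.86 in 3D, the FERM protein Frmd6 by 2.14 and 1.80, and the KIBRA relative Wwc2 by 1.02 and 1.05. The tumor suppressor Nf2 (merlin) went the other way, at 177 ± 62 TPM in D2A1 2D and 59.4 ± 1.4 TPM in D2.OR 2D (SD, n = 3, log2-fold change -1.45, SE 0.17, edgeR adjusted p = 0.000167). Amot, another angiomotin, was higher in D2.OR in 3D by 1.18 (edgeR adjusted p = 0.000702) and at 0.33 in 2D, and it fell from 2D to 3D in D2A1 by 0.91 (edgeR adjusted p = 0.0420). The Ajuba relatives Limd1 and Wtip did not pass in any of the 5 comparisons, with line differences between -0.12 and 0.15.

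Of the TEAD cofactors, the Vestigial-like gene Vgll3, whose protein binds TEADs, was at 2.09 ± 1.37 TPM in D2A1 2D, 0.507 ± 0.203 TPM in D2A1 3D, 10.6 ± 0.7 TPM in D2.OR 2D and 12.6 ± 2.7 TPM in D2.OR 3D (SD, n = 3). It was higher in D2.OR by 2.65 in 2D (SE 0.35, edgeR adjusted p = 0.000299) and by 4.65 in 3D (SE 0.39, edgeR adjusted p = 1.9e-05). It fell from 2D to 3D in D2A1 by 1.84 (SE 0.36, edgeR adjusted p = 0.0401). The cofactors Vgll1 and Vgll2, the upstream gene Dchs1 and the target Igfbp3 did not pass the filter on low counts.

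Of the 16 further targets tested, 8 were higher and 4 lower in D2.OR in 2D, and 10 higher and 2 lower in 3D. Over all tested genes, 25.4% were higher and 24.4% lower in 2D, and 27.7% and 26.1% in 3D. Ccdc80, a secreted matrix protein, was higher in D2.OR by 6.23 in 2D (SE 0.34, edgeR adjusted p = 2e-06) and 5.15 in 3D. The growth factor Tgfb2, named after its values were seen, was higher by 4.33 and 4.42. The transcription factor gene Foxf2 was lower in D2.OR by -3.94 in 2D and -2.65 in 3D, and rose from 2D to 3D in D2.OR, from 1.25 ± 0.49 to 3.34 ± 0.11 TPM (SD, n = 3, log2-fold change 1.46, edgeR adjusted p = 0.0240). Rbms3, an RNA-binding protein gene, was at 2.48 to 8.01 TPM in D2A1 and at most 0.06 TPM in D2.OR, where no library had more than 8 expected counts, and no fold is given for it. Gadd45a, a stress-response gene, fell from 2D to 3D in D2A1 by 2.14 (SE 0.43, edgeR adjusted p = 0.0420), with batches at -0.68, -3.29 and -1.99. The targets thus did not all move in the direction of Ctgf and Cyr61.

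Of the 40 genes tested, 4 passed between 3D and 2D in D2A1 (3.48% of all tested genes did), all lower (Stk3, Amot, Vgll3 and Gadd45a). In D2.OR, 2 passed (1.62% of all tested genes did), Tead2 lower and Foxf2 higher, and for the interaction 0 passed in edgeR. These counts depended on the setting. Over the other settings they ran from 0 to 15 in D2A1, 0 to 3 in D2.OR and 0 to 6 for the interaction. All tested genes called ran there from 15 to 3512, 20 to 1174 and 0 to 944 in the same order. With a batch or library left out the pathway counts ran from 0 to 18, 0 to 2 and 0 to 9. All tested genes called then ran from 0 to 6120, 0 to 1412 and 0 to 2999. Without the batch block, 0 of the 40 passed in either line, when 52 of all tested genes passed in D2A1 and 20 in D2.OR.

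**Figure D4:**
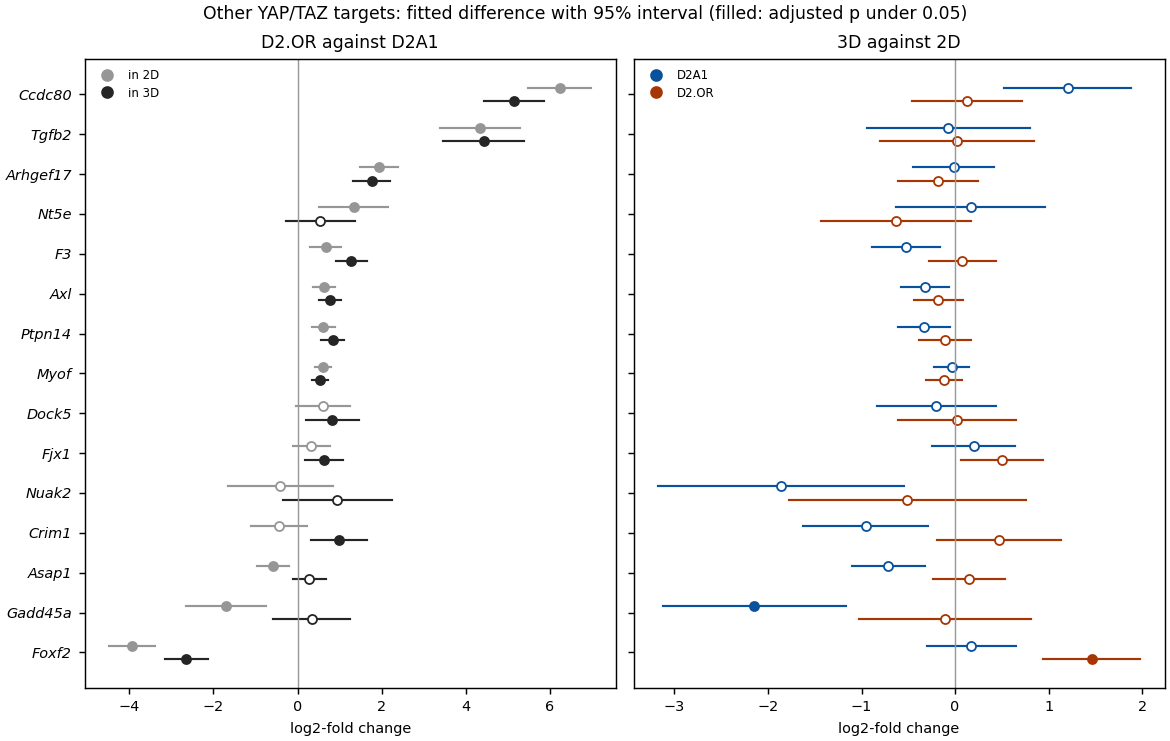
Fitted log2-fold change with 95% interval from edgeR of 15 further YAP/TAZ targets, for D2.OR against D2A1 (left) and 3D against 2D (right), where filled points have an adjusted p under 0.05, and Rbms3, near 0 counts in D2.OR, is left out. Ccdc80 (6.23 in 2D) and Foxf2 (-3.94 in 2D) mark the ends of the left panel.

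Genes most like a member were sought by the smaller of the Pearson correlations of log2 CPM over the 6 libraries of D2A1 and over the 6 of D2.OR, among 9628 genes of at least 10 CPM on average. The values are descriptions, since the 6 libraries share batches and cultures. The best of 9628 genes over so few libraries also reach high values by selection alone. For Ctgf these were Ston1 (0.98) and Vegfc (0.97), for Cyr61 Tbc1d5 (0.97) and Arhgap29 (0.96), and for Ankrd1 Plau (0.90) and Man2a1 (0.86). For Yap1 they were Ifngr2 (0.93) and Virma (0.89), and for Wwtr1 Pcnx (0.96) and St3gal3 (0.91).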

How the data were processed

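The 12 RNA-seq libraries, 3 per group, were used. Before deposit, the authors ran Trimmomatic 0.32 on the reads, STAR 2.5.3 for alignment to GRCm38 with GENCODE genes, and RSEM 1.3.0 for quantification. The deposited expected counts are not normalized, and RSEM shares a read that fits several genes among them. The deposited TPM values also come from RSEM and are scaled for gene length and library size. Deposited FPKM values were not used here. TPM gave the levels.

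For the tests, expected counts were rounded (10.7% to 11.8% of values per library were not whole) and fitted with edgeR 4.0.16 (R 4.3.3, TMM, filterByExpr, quasi-likelihood F test, Benjamini-Hochberg over 16823 genes), with group (4 levels) and batch as terms. All 12 libraries shared 1 estimate of the spread. The labels give the batch with the replicate number. As a check, deviations from the group means correlated at 0.08 to 0.51 for the 18 same-number pairs (median 0.27). Over the 36 other pairs they correlated at -0.43 to 0.30 (median -0.19), so the ranges overlap. Deviations within a group sum to 0, so positive same-number pairs push the other pairs down. Labels do not say whether replicates were separate cultures beyond the batch, so p-values measure the spread between these libraries. Differences within a batch are of log2 CPM with a prior count of 2. Fold changes of the fit are relative to TMM scaling.

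The members and gene lists were chosen with earlier results of these data known. The genes named were all 10 members, their paralogs, up to 3 genes of each other list with the smallest p among those called, and the 2 genes most like each of 5 members. Tgfb2 was added after its values were seen, as were the Stk3 value in 2D and the Wwc2 value in 2D. The alternatives were no replicate block, DESeq2 1.42.0, limma 3.58.1 on log2(TPM + 1) and log2(TPM + 0.1), DESeq2 size factors or library totals in edgeR, no filter, only the 6 libraries compared, and leaving out each batch or each library. The test was tried on simulated data. Promoter sequences are from RefSeq, and protein sequences were not analysed here.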

Additional observations from a re-analysis of the deposited data

Results flagged for a closer look

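For Amotl2, the change from 2D to 3D had opposite signs in the lines, being negative in 3 of 3 batches of D2A1 and positive in 3 of 3 batches of D2.OR. The difference of the changes was 1.06 on the log2 scale. The test of that difference, the interaction of line and culture, did not pass over all genes (edgeR adjusted p = 0.211).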

How the results depend on the processing

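Of 1140 alternative values for single member genes, 1002 kept their direction and side of the threshold, 62 lost the call, 17 gained it and 59 changed sign. The calls of Lats2, Amotl2, Ctgf and Cyr61 between the lines in 3D held in every alternative run. The number of members called in 2D between the lines (6) was 2 without the replicate block, when 7391 of all genes were called. It was 2 to 7 with a batch or library left out. In 3D (7) it was 4 to 7 with a batch or library left out. Between 3D and 2D in D2A1 (1) it was 0 without the replicate block (52 of all genes) and 3 with DESeq2 (3512 of all genes). There it was 2 with limma at either pseudocount, 0 with only the 6 libraries compared, and 0 to 5 with a batch or library left out. In D2.OR (0) it was 1 with only the 6 libraries compared (Ankrd1) and 0 to 1 with a batch or library left out. For the interaction (0) it was 1 with DESeq2 (Lats2), when 944 of all genes passed, and 0 to 1 with a batch or library left out. The block ended or made no other member's call than those named with it. All genes called ranged from 15 to 3512 over the settings between 3D and 2D in D2A1 (586), from 20 to 1174 in D2.OR (273) and from 0 to 944 for the interaction (4), and from 5759 to 8796 between the lines in 2D (8378). With a batch or library left out they were 0 to 6120, 0 to 1412, 0 to 2999 and 4227 to 9062, and 5273 to 10298 between the lines in 3D (9044).

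Library totals in place of TMM moved the median of all genes by -0.16 between the lines in 2D and by -0.10 in 3D. Sign changes were of values that did not pass in either form. With library totals, the 2D line difference became -0.0091 for Yap1 and -0.13 for Tead4, and the change of Ajuba in D2.OR 0.045. With limma at pseudocounts 1 and 0.1, Tead4 in 2D between the lines was -0.088 and -0.093, Ajuba -0.019 and -0.018 in D2A1, 0.025 and 0.024 in D2.OR and 0.043 and 0.042 for the interaction, and Ctgf in D2.OR 0.18 and 0.17. Without the replicate block, the change of Ctgf in D2.OR was 0.59, that of Ajuba 0.016, and the Ajuba interaction 0.013. With only the 6 libraries compared, Ctgf in D2.OR was 0.13. With a batch or library left out, the 2D line difference was -0.25 to 0.15 for Wwtr1, -0.20 to 0.27 for Tead4 and -0.24 to 0.27 for Ajuba, and the 3D difference of Ajuba -0.26 to 0.084. The change in D2A1 was -0.11 to 0.028 for Yap1, -0.089 to 0.37 for Tead4 and -0.12 to 0.33 for Ajuba. In D2.OR it was -0.13 to 0.21 for Wwtr1, -0.050 to 0.30 for Lats2, -0.19 to 0.20 for Ajuba and -0.75 to 0.40 for Ctgf. The interaction was -0.029 to 0.53 for Tead4, -0.51 to 0.32 for Ajuba and -0.52 to 0.91 for Ankrd1. The cause of these changes was not tested.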

Other observations

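Ctgf as a percentage of Cyr61 (both in TPM) was 14.7, 8.64 and 5.37 in the D2A1 2D libraries of batches 1 to 3 and 13.7, 2.62 and 2.51 in D2A1 3D. It was 24.5, 23.2 and 19.6 in D2.OR 2D and 48.3, 39.7 and 19.3 in D2.OR 3D. The D2A1 percentages were thus below those of D2.OR in all libraries.

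The level in batch 1 relative to the mean of the other batches of the same group was 8.83 for Ctgf in D2A1 2D, 21.7 in D2A1 3D, 1.19 in D2.OR 2D and 4.76 in D2.OR 3D. For Cyr61 it was 4.10, 4.04, 1.04 and 3.04 in the same order. D2.OR 2D was the group in which batch 1 stood apart least for both genes.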
